A study of Rattus norvegicus with 6 samples.

Results

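Potassium channel subunits were followed in rat spinal cord across 6 conditions that combined encephalitogenic T cells with antibody. A target is a transcript or sequence entry to which the array assigns its probes, and the members are all targets whose gene name on the array begins with Kcn. There were 94 such targets of 36410 on the array, which carried 89 gene names and 104 probes. Adult Lewis rats had received T cells specific for myelin basic protein (MBP) together with NMO-IgG (ENMO), with human control IgG (EAEcoI) or with PBS (EAEcoP), or had received NMO-IgG only, control IgG only, or neither (healthy control). NMO-IgG is the antibody fraction of a patient with neuromyelitis optica. T cells were injected on day 0 and antibody or PBS on day 4, and the tissue was taken 24 hours later. RNA came from fixed, paraffin-embedded sections, with 5 rats pooled per group and 3 for the healthy control, and each pool was measured on 1 array. There was therefore no replicate of any condition and no estimate of the spread between animals. No group had a transgene or a deletion, and the healthy control received no sham injection.

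Potassium channels let potassium ions leave or enter the cell and set the resting potential and the shape and rate of action potentials. Pore-forming subunits of the voltage-gated class (Kcna to Kcnd, Kcnh, Kcnq) open on depolarization, the silent subunits (Kcnf, Kcng, Kcns, Kcnv) modify them, inward rectifiers (Kcnj) and tandem-pore leak channels (Kcnk) hold the resting potential, and the calcium-activated class (Kcnma, Kcnn) follows intracellular calcium. In spinal cord, shaker-type channels lie beside the nodes of Ranvier of myelinated axons, the inward rectifier Kcnj10 belongs to astrocytes, and Kcna3 and Kcnn4 are the channels for which T lymphocytes and microglia are known.

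The probes behind the targets on which the results below turn are 60 bases long. The first 30 bases of each, 5′ to 3′ as deposited with the scanner output, are shown so that the measured sequence can be identified.
Kcnh3 (NM_017108): gtggacccaggaggagggcacaggagtctg
Kcnh4 (NM_053630): tccacctggtctccagaatactacacttgc
Kcnj3 (NM_031610): acccctccgtacagtgtgaaagagcaggaa
Kcnj16 (NM_053314): caatatcttatctcctaagcacaacagatg
The GC content of the whole probe was 63.3% for Kcnh3, 53.3% for Kcnh4, 45% for Kcnj3 and 43.3% for Kcnj16. Among all pairs of the 104 member probes, only 2 probes of Kcng2 shared a run of 15 bases or more, and that run was 20 bases long.

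Many potassium channel targets were near the detection limit of these arrays. A spot was taken as measured where the scanner software marked it well above background. Of the 94 targets, 69 were measured on at least 1 array, 28 on all 6 and 25 on none. The share of potassium channel targets measured was 67.0% in EAEcoP, 59.6% in EAEcoI and 45.7% in ENMO, and 42.6% in the healthy control, 37.2% with control IgG only and 43.6% with NMO-IgG only. The shares for all targets were 61.4%, 56.0%, 46.5%, 43.8%, 37.5% and 42.4% in the same order. More was thus measured on both EAE arrays than on the other 4, for these targets and for the array as a whole. Of the 14 members measured on only 1 array, 11 were measured in EAEcoP and 3 in EAEcoI. The array as a whole was alike: of 4149 targets measured on only 1 array, 2988 were measured in EAEcoP and 747 in EAEcoI. Member probes measured on all 6 arrays had a median GC content of 51.7% and those measured on none 38.3%, against 45% and 36.7% for all probes on the array.

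**Figure D1:**
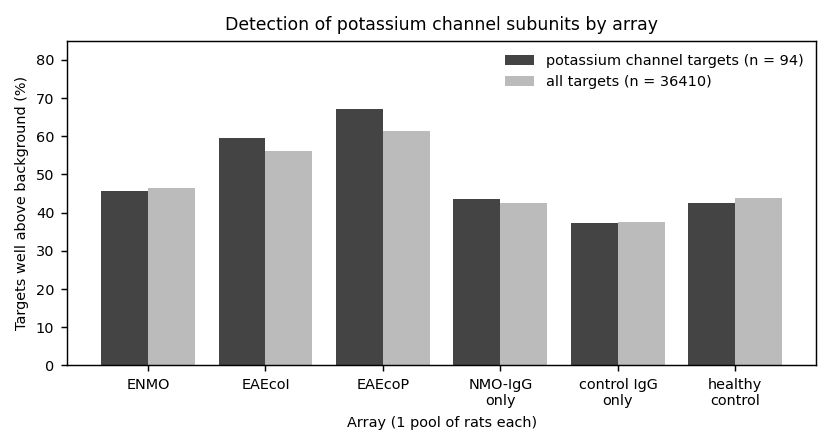
Share of targets well above background (%, linear axis from 0) on each of the 6 arrays, for the 94 potassium channel targets (dark bars) and all 36410 targets (light bars). Both series are highest in EAEcoP (67.0% and 61.4%) and EAEcoI (59.6% and 56.0%), and there are no error bars because each condition is 1 array.

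Levels are given as normalized signal intensity (NSI), the background-corrected signal after quantile normalization over the 6 arrays. An NSI depends on the probe, so levels are compared between arrays for 1 target and never between targets. The array itself gave the only measure of precision: a difference between 2 spots of the same probe had an SD of 0.77 on the log2 scale, or 1.70-fold, from 263 probes with 10 spots each. A target was counted as different where the log2 ratio of mean NSI exceeded this spread and the arrays of both groups did not overlap. Where no array of a group was measured, each of its values was taken as the larger of its NSI and its array's detection floor. That floor was the lowest NSI that passed on the array. Unmeasured spots could lie above it, as Kcna3 (NM_019270) did in ENMO (20.6 against 7.48). Such a ratio is given as a bound (at least or at most), and the bound is therefore nominal. In tests by limma across 24775 targets with all 6 arrays, no target passed a Benjamini-Hochberg adjusted p of 0.05 in any of the comparisons. An exact permutation test of 3 arrays against 3 cannot give a two-sided p below 0.1. In this bulk tissue fewer cells of a type and less RNA per cell cannot be told apart. Slide 1 held the ENMO, control IgG only and EAEcoP arrays, and slide 2 the remaining 3.

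Markers of the tissue were measured unevenly. Of 9 targets of oligodendrocyte markers, 7 were measured on all 6 arrays, among them Mbp and Mog. Of 10 neuronal targets 3 were measured on all 6 (Chat, Snap25 and Syn1), and of 10 astrocyte targets 2 (Aldoc and Gja1). Aqp4, the water channel to which NMO-IgG binds, was measured on only 1 array and Slc1a3 on none. Of 7 T cell marker targets, Cd3d was measured on all 6 arrays, those without transferred T cells included, and Cd2 and Cd3e on none.

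Among the voltage-gated pore-forming subunits, 4 of 18 targets of Kcna, Kcnb, Kcnc and Kcnd were measured on all 6 arrays (Kcna6 and Kcna10 among them), and 7 on none. Kcna2, the partner of Kcna1 beside the node, was below background on every array, at 2.82 in EAEcoP, 3.61 in EAEcoI and 5.39 in ENMO, and at 6.51 in the healthy control, 6.45 with control IgG only and 5.55 with NMO-IgG only. Where values without T cells are given as 3 numbers below, they stand in this order of healthy control, control IgG only, NMO-IgG only, and those with T cells in the order EAEcoP, EAEcoI, ENMO. Kcnc1, a channel of fast-firing neurons, was also below background throughout, at 6.11 to 15.3. No level can be given for either.

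Kcna3, the T lymphocyte channel, was measured by its target NM_019270 in EAEcoI at 34.6, in EAEcoP at 13.1 and in NMO-IgG only at 48.0. It was below background at 20.6 in ENMO, 13.9 in control IgG only and 11.3 in the healthy control. The arrays with and without T cells overlapped, and a second Kcna3 target was measured on none. Kcnd2, which carries the transient A-type current, was measured in EAEcoI (20.5), EAEcoP (12.3) and NMO-IgG only (39.8), and its values overlapped as well.

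Of the 8 ether-a-go-go targets (Kcnh), 5 were measured on all 6 arrays, and of the 4 Kcnq targets 2. Kcnq3, a subunit of the M-current that damps repetitive firing, was below background on all arrays. Kcnq1 lay within 13.9 to 24.5 on all 6 arrays.

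Of the 18 inward rectifier targets, 3 were measured on all 6 arrays (Kcnj3 NM_031610, Kcnj8 and Kcnj9). Kcnj10, the astrocytic channel of potassium uptake, was measured only in EAEcoP, at 7.60, and was between 2.27 and 6.78 elsewhere. Kcnj2, a strong inward rectifier, was at 70.3 in EAEcoP and between 1.76 and 6.21, below background, on the other 5 arrays.

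Of the 12 leak channel targets, 4 were measured on all 6 arrays (Kcnk3, Kcnk5, Kcnk9 and Kcnk12). Kcnk6 was measured on 5 arrays, at 52.2, 18.9 and 23.4 with T cells, and at 34.1 in control IgG only and 28.7 in the healthy control. The second probe of Kcnk6 was measured in EAEcoP only, at 30.9. It was below background at 9.94 in EAEcoI and 18.8 in ENMO, and at 7.22, 7.92 and 5.12 without T cells. By that probe Kcnk6 was at least 2.93-fold higher with T cells. Kcnn4, the calcium-activated channel of T lymphocytes and microglia, was at 74.5, 82.8 and 82.9 with T cells and at 56.8, 103 and 45.7 without. The T cell arrays of Kcnn4 lay inside the range of the others. Kcnab2, the auxiliary subunit of shaker-type channels, was among the steadiest members, at 141 to 215 on all arrays, whereas Kcnab1 was below background throughout.

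Among the 28 targets measured on all 6 arrays, the highest array exceeded the lowest by a median of 2.75-fold. The narrowest were Kcnab2 (1.52-fold), Kcnq1 and Kcng2 (both 1.77-fold), and the widest was Kcnh3 (15.1-fold). EAEcoP was the lowest array for 10 of the 28 and EAEcoI the highest for 9. Kcnk9, an acid-sensitive leak channel, was at 759, 1385 and 760 with T cells and at 1325, 1016 and 2108 without, and Kcna6, of the shaker type, at 64.4, 166 and 123 and at 144, 173 and 138. Both overlapped. Kcnj8, the pore of the ATP-sensitive channel of vessel walls, was highest in the healthy control at 89.2 and was at 56.5 and 48.2 on the other arrays without T cells, against 48.4, 19.2 and 43.8 with T cells.

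The members measured on only 1 array included Kcne4, Kcnmb4 and Kcnv1 in EAEcoI, and Kcnd3, Kcne2, Kcnh2, Kcnip4, Kcnj2, Kcnj3 (U42423), Kcnj4, Kcnj10, Kcnk1 and Kcnt1 in EAEcoP. The 25 targets measured on none were, besides those named above, Kcna4, Kcna7, Kcnb2, Kcnc2, Kcne1l, Kcne3, Kcnh8, Kcnip1, Kcnj1, Kcnj13, Kcnj14, both targets of Kcnj6, the Kcnj3 target ENSRNOT00000007335, Kcnk10, Kcnk15, Kcnmb2, Kcnn2, Kcns3 and Kcnt2. Not being measured gives no level and does not show that a subunit was absent. The other 27 targets were measured on 2 to 5 arrays.

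**Figure D2:**
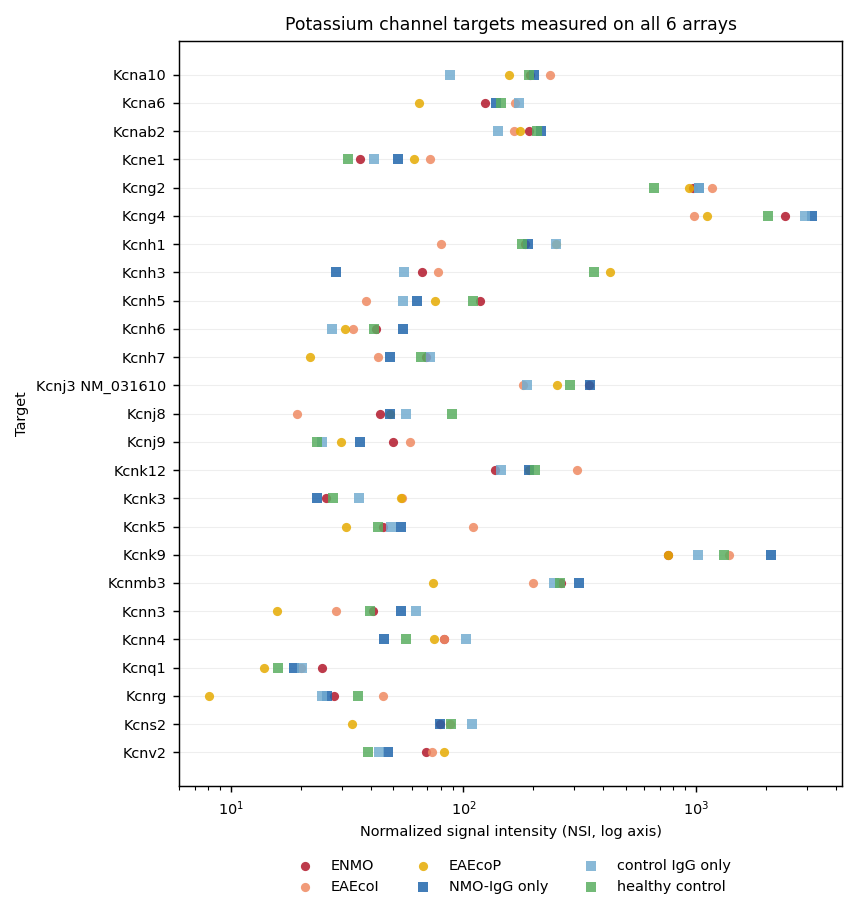
NSI on a log axis of 25 of the 28 potassium channel targets measured on all 6 arrays, each point 1 array (circles with T cells, squares without). Kcnv2 has its 3 circles (69.2 to 82.3) to the right of its 3 squares (38.8 to 47.6), Kcnab2 stays within 141 to 215, and Kcnh3 has both arrays without antibody (429 and 363) far to the right of the other 4 (28.3 to 77.8).

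The first comparison asked how the 3 arrays with T cells differed from the 3 without. Few potassium channel targets separated the arrays: 1 of 68 measured members was higher with T cells (Kcnv2) and 2 were lower (Kcnj16 and Kcng3). These are 1.47% and 2.94% of the members, against 7.95% and 5.05% of all 24775 targets. The median log2 ratio was 0.17 over 57 members with a ratio and 0.0089 over all targets. Over targets measured on all 6 arrays the medians were 0.043 and -0.22.

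Kcnv2, a silent subunit that modifies other voltage-gated channels, had NSI values of 82.3, 73.4 and 69.2 with T cells, and of 38.8, 43.2 and 47.6 without. All 3 T cell arrays were above all others, with little variation on either side. The ratio of means was 1.74-fold, and limma gave a log2 difference of 0.80 (SE 0.48, adjusted p = 0.54). Within slide 1 the log2 ratio was 0.81 and within slide 2 0.76. After removal of each array's local trend it was 0.43, below the spread between spots.

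Kcnj16, which joins Kcnj10 in the inward rectifier of glia, was at 5.86 (below background), 11.1 and 9.38 with T cells. Without T cells it was at 13.9, 22.1 and 21.3. The groups did not overlap, although the healthy control lay close to EAEcoI. The mean was 2.18-fold lower with T cells (limma log2 difference -1.14, SE 0.52, adjusted p = 0.44). The log2 ratio was -1.53 within slide 1 and -0.67 within slide 2, and on the deposited intensities without normalization it was -0.13.

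Kcng3, another silent subunit, was at 4.16 (below background), 12.3 and 12.4 with T cells, and at 16.1, 15.2 (below background) and 20.0 without. The groups did not overlap and the mean was 1.78-fold lower with T cells (limma log2 difference -0.98, SE 0.59, adjusted p = 0.54). Without EAEcoP the log2 ratio was -0.47, within the spread, and on slide 2 alone it was -0.56. On the deposited intensities it was -0.018. With normexp background correction, whose offset compresses ratios of dim targets, the log2 ratio was -0.13 for Kcng3, -0.26 for Kcnj16 and 0.44 for Kcnv2, all within the spread. The astrocyte markers, summed over 9 targets, ranged from 229 to 359 with T cells and from 231 to 425 without, so these ranges overlapped. Their part in the lower Kcnj16 was not tested.

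Of the 68 members, 6 had an unadjusted limma p under 0.05, all with higher values with T cells, against 11.4% of all targets. They included Kcne2, Kcnip3, Kcnj2 and Kcnj3 (U42423), and the smallest adjusted p among the members was 0.27. These 4 were below background on every array without T cells, so that their limma differences rest on values below background there. By the rule of spread and overlap such a target could be counted only as higher with T cells, and none of the 6 was counted. Among the 28 members measured on all 6 arrays, 1 had an unadjusted p under 0.05. Kcnj2 and Kcnip3, which codes for a calcium-binding protein that associates with Kcnd channels, were at 70.3 and 33.3 in EAEcoP. In ENMO they were at 2.47 and 4.12, below background. Summed NSI of 12 myeloid marker targets was 4443, 5935 and 15859 with T cells, and 2781, 2427 and 4133 without. Such a sum is carried by its brightest targets. By target, 4 of the 12 were higher with T cells and 0 lower, with a median log2 ratio of 0.32. In ENMO against EAE, 3 of the 12 were higher and 0 lower, and the median was -0.11 over 11 with a ratio. The part of myeloid content in the T cell differences was not tested.

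**Figure D3:**
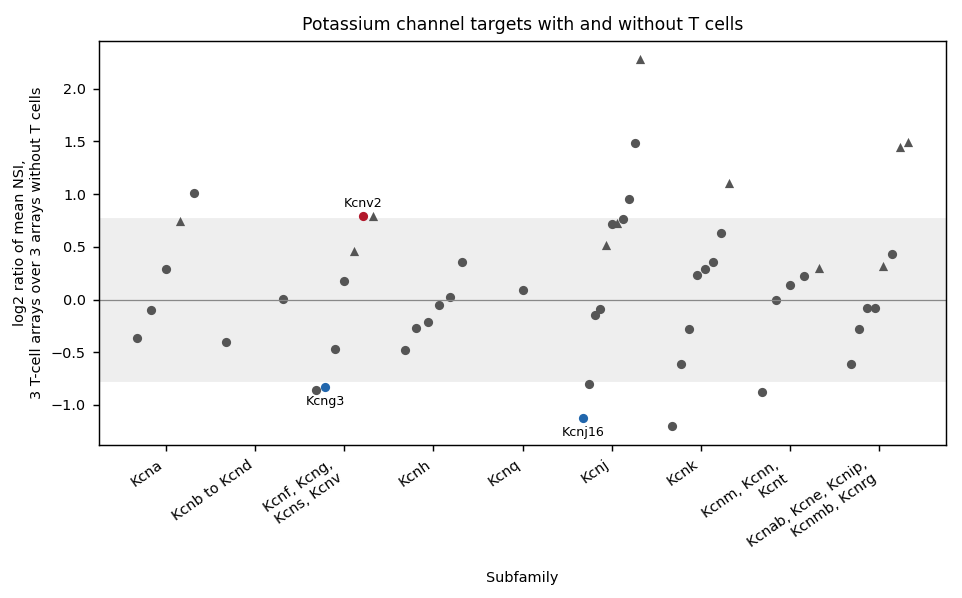
Log2 ratio of mean NSI, 3 arrays with T cells over 3 without, for 53 of the 57 potassium channel targets with a ratio, arranged by subfamily. Circles are ratios and upward triangles lower bounds; the grey band is the spread between spots (0.77), and coloured points are the targets that also did not overlap, Kcnv2 (higher) and Kcnj16 and Kcng3 (lower).

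The second comparison set the ENMO array against both EAE arrays, of which EAEcoI had received control IgG and EAEcoP no antibody. Against EAEcoP, NMO-IgG cannot be told apart from the presence of any human IgG. Here 9 of 69 measured members were higher and 13 lower in ENMO. These are 13.0% and 18.8% of the members, against 18.1% and 15.7% of all targets. The median log2 ratio was -0.058 over 56 members and -0.091 over all targets. By limma, 5 members had an unadjusted p under 0.05, against 5.76% of all targets, and the smallest adjusted p was 0.36, for Kcnh4. By the rule of spread and overlap, a target measured only on EAE arrays could come out only as lower in ENMO. Among the 28 members measured on all 6 arrays, 6 were higher and 5 lower in ENMO, against 26.1% and 11.3% of all such targets, their median log2 ratio was 0.16, and 2 had an unadjusted p under 0.05. The comparison rests on 1 ENMO array.

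The members higher in ENMO came from several classes. Kcnk13, a leak channel known from microglia, was at 25.1 in ENMO, against 12.5 in EAEcoI and 5.88 (below background) in EAEcoP, a ratio of 2.73. In the values that follow, EAEcoI is given before EAEcoP. All its arrays without T cells, at 21.4 to 40.4, were near or above ENMO. Kcng4, a silent subunit, was at 2407 in ENMO against 978 and 1114, a ratio of 2.30, and at 2041 to 3163 without T cells.

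The ratio was 2.16 for Kcnma1, the pore of the large-conductance calcium-activated channel, with 41.7 in ENMO against 28.8 and 9.69. Its second probe was below background on all arrays. Kcnh7 was at 68.9 against 42.7 and 22.0, a ratio of 2.13, and Kcnh5 at 118 against 38.1 and 75.5, a ratio of 2.08. Kcnmb3, an auxiliary subunit of the Kcnma1 channel, was at 264 against 198 and 73.9, a ratio of 1.94. Kcnk18 was at 21.2 against 13.8 (below background) and 8.93, a ratio of 1.87, and Kcnn3, a small-conductance calcium-activated channel, was at 40.9 against 28.3 and 15.8, a ratio of 1.85. For Kcnma1, Kcnh7, Kcnmb3, Kcnk18 and Kcnn3 the lower EAE array was EAEcoP, and ENMO over EAEcoI alone was within the spread between spots. Kcnh5 was likewise within the spread against EAEcoP alone. For each of these members but Kcnk18, at least 1 array without T cells was measured and lay above both EAE arrays.

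The lower members were led by Kcnab3, an auxiliary subunit of shaker-type channels, and by Kcnh4. Kcnab3 was at 28.8 in ENMO against 832 in EAEcoI and 50.8 in EAEcoP, 15.3-fold lower, and this ratio rested on EAEcoI. Against EAEcoP alone the log2 ratio was -0.82. Without T cells Kcnab3 was at 88.7 with control IgG only and 40.1 with NMO-IgG only, and the healthy control had no value because its spot was an outlier.

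Kcnh4 was measured on every array but ENMO. It was at 120 in EAEcoI and 92.8 in EAEcoP, at 64.7, 55.4 and 107 without T cells, and at 6.36, below background, in ENMO. ENMO was at least 14.2-fold lower than EAE (limma log2 difference -4.05, SE 0.78, adjusted p = 0.36). Each array holds 1 spot of this probe.

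Kcna1, the shaker-type channel beside the node of Ranvier, was at 44.5 in EAEcoI and 78.9 in EAEcoP and at 6.30, below background, in ENMO, at least 8.24-fold lower. Without T cells it was measured with NMO-IgG only, at 25.5, and was below background at 22.7 and 16.1 otherwise. Its second probe was below background on all arrays.

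Inward rectifiers were among the lower members. Kcnj12 was at 7.72 (below background) in ENMO against 19.0 and 56.7, at least 4.90-fold lower. Kcnj11, the pore of the ATP-sensitive channel, was at 25.7 against 59.9 and 106, or 3.23-fold lower. Kcnh3, of the same subfamily as Kcnh4, was at 66.6 against 77.8 and 429, or 3.80-fold lower. This Kcnh3 ratio rested on EAEcoP, since the log2 ratio against EAEcoI alone was -0.22. Kcnip2 was at 5.17 (below background) against 39.6 and 7.98, at least 3.18-fold lower, and its log2 bound against EAEcoP alone was -0.093.

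The other lower members included Kcng1 (4.70, below background, against 12.8 and 18.3) and Kcnk2, a stretch-sensitive leak channel (2.58, below background, against 7.69 and 24.8). Kcnk3, an acid-sensitive leak channel, was at 25.7 against 54.3 and 53.7, Kcne1 at 35.9 against 72.0 and 61.4, and Kcnk12 at 136 against 306 and 191. Without T cells Kcnk3 was at 23.4 to 35.7, so that ENMO lay among these arrays and both EAE arrays above them.

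Many of the ENMO ratios were smaller with normexp. The log2 ratio moved from -3.83 to -1.20 for Kcnh4, from -3.04 to -0.82 for Kcna1 and from -3.94 to -2.67 for Kcnab3. It moved from -2.29 to -0.33 for Kcnj12, from -1.69 to -0.62 for Kcnj11 and from -1.67 to -0.34 for Kcnip2, each then within the spread between spots, and Kcnh3 was at -1.16. Of the higher members, Kcnk13 (0.46), Kcnma1 (0.21) and Kcnk18 (0.29) also fell within the spread. Kcnh7 (0.762) and Kcnh5 (0.767) fell just within it (0.769), and Kcng4 (1.20) and Kcnmb3 (1.09) lay beyond it.

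**Figure D4:**
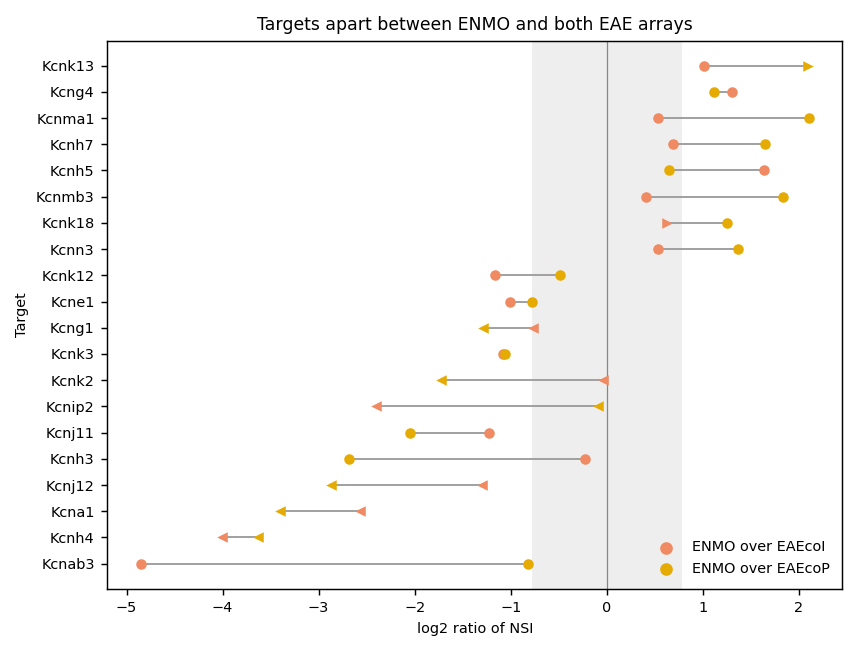
Log2 ratio of NSI of ENMO over EAEcoI and over EAEcoP for 20 of the 22 potassium channel targets that were apart from both EAE arrays, ordered by the ratio to the EAE mean. Triangles are bounds that point away from 0, and the grey band is the spread between spots; Kcng4 lies beyond the band on the right and Kcnh4 and Kcna1 on the left for both EAE arrays, while Kcnab3, Kcnh3, Kcnip2 and Kcnk2 have 1 of the 2 EAE arrays near or inside it.

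The third comparison set NMO-IgG against control IgG within each T cell background, and a member was counted only where it passed the spread in both. This applied to 1 higher and 2 lower of 44 measured members, 2.27% and 4.55%, against 2.9% and 3.12% of all targets. No member passed limma's adjusted threshold, and 1 had an unadjusted p under 0.05 (Kcnip2, lower with NMO-IgG), against 1.31% of all targets. Kcnj3 (NM_031610), a subunit of the G-protein-gated inward rectifier of neurons, was at 345 in ENMO and 180 in EAEcoI, and at 349 in NMO-IgG only and 188 in control IgG only. The NMO-IgG arrays were alike and so were the control IgG arrays, with ratios of 1.92 and 1.86. The arrays without antibody, EAEcoP at 252 and healthy control at 288, lay between them (limma log2 difference 0.92, SE 0.73). The other Kcnj3 targets, U42423 and ENSRNOT00000007335, were below background on all 4 of these arrays.

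Kcnab3 was lower with NMO-IgG in both backgrounds, at 28.8 against 832 with T cells and at 40.1 against 88.7 without. Kcnj12 was at 7.72 against 19.0 with T cells and at 6.49 against 82.0 without, with both NMO-IgG arrays below background. It was at least 2.46-fold lower with T cells and at least 12.6-fold lower without. On the arrays without antibody Kcnj12 was at 56.7 in EAEcoP and at 3.71, below background, in the healthy control.

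The fourth comparison set control IgG against no antibody and shares the control IgG arrays with the third. Of the arrays without antibody, EAEcoP had received PBS, whereas the healthy control was not injected and pooled 3 rats instead of 5. Without T cells, control IgG therefore cannot be told apart from the injection. Here 1 of 42 measured members was higher and 4 were lower with control IgG in both backgrounds, 2.38% and 9.52%, against 5.1% and 2.67% of all targets. No member passed limma's adjusted threshold. The clearest case was Kcnh3, a voltage-gated channel of forebrain neurons. It was at 429 in EAEcoP and 363 in the healthy control, and at 77.8 in EAEcoI, 66.6 in ENMO, 55.5 with control IgG only and 28.3 with NMO-IgG only. Both arrays without antibody, which lay on different slides, stood above all 4 with antibody. Control IgG was 5.51-fold lower with T cells and 6.54-fold lower without (limma log2 difference -2.58, SE 0.75, adjusted p = 0.999). Kcnh3 was the member with an unadjusted p under 0.05 in this comparison, which 2.5% of all targets had.

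Kcnh5 was at 38.1 in EAEcoI against 75.5 in EAEcoP, and at 54.7 in control IgG only against 110 in the healthy control, or 1.98-fold and 2.02-fold lower. With NMO-IgG it was at 118 with T cells and 63.0 without. Kcnj11 was at 59.9 against 106 with T cells, and at 23.6 (below background) against 52.6 without. Kcnj5, another subunit of the G-protein-gated channel, was at 9.13 against 33.1, and at 7.44 (below background) against 15.3. Kcnk13 was the member that was higher with control IgG, at 12.5 against 5.88 (below background) with T cells and 40.4 against 21.4 without, or at least 2.12-fold and 1.88-fold.

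**Figure D5:**
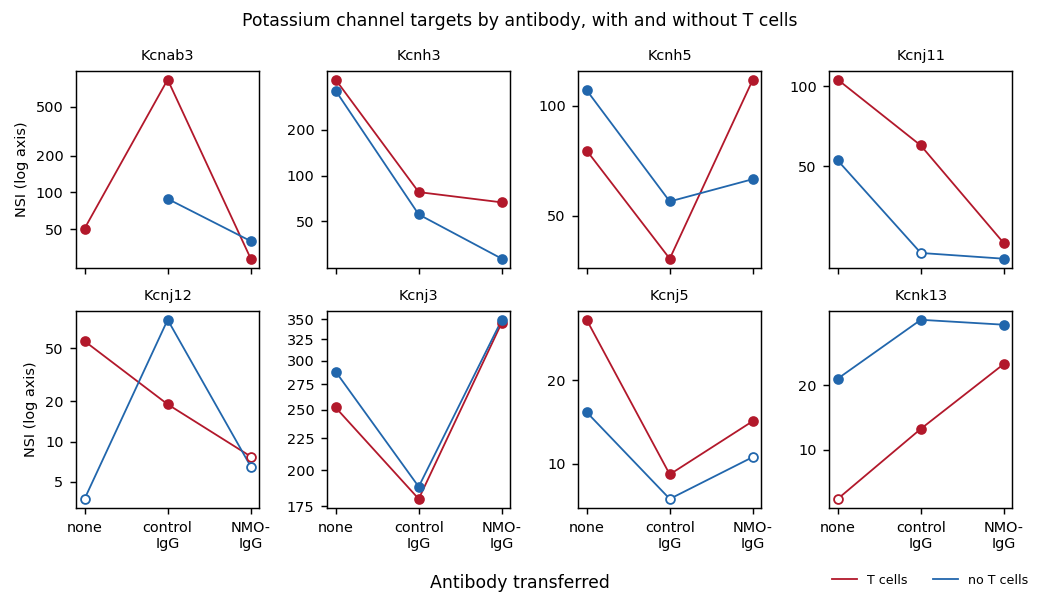
NSI (log axes that differ between panels) of the 8 potassium channel targets counted in either antibody comparison, by antibody, with T cells in red and without in blue. Filled points are well above background and open points are not, each point is 1 array, and Kcnab3 has no healthy control value; Kcnh3 falls from 429 and 363 without antibody to 77.8 or less with it, and Kcnj3 (NM_031610) rises from 180 and 188 with control IgG to 345 and 349 with NMO-IgG.

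Genes that work with these channels were taken from a list of 25 that covers cation channels of the Hcn family, ATP-sensitive channel receptors, Kcnd partners, axonal scaffolds, the sodium pump and the potassium-chloride transporters. On the array 22 were present as 26 targets, of which 17 were measured. With T cells 1 target was higher and 2 were lower, and 0 of the 17 passed limma's adjusted threshold, while 4 had an unadjusted p under 0.05. Of all targets, 7.95% were higher, 5.05% lower and 11.4% had such a p. Slc12a7 (ENSRNOT00000022635), a potassium-chloride transporter, was at 138, 76.6 and 40.5 with T cells and at 13.7, 13.5 and 7.89 (both latter below background) without, a ratio of 7.26. Atp1b2, the sodium pump subunit of glia, was at 429, 530 and 530 with T cells and at 2766, 881 and 1010 without, or 3.13-fold lower. Hcn2 (XM_001077248), a hyperpolarization-activated channel, was at 4814, 4359 and 12027 with T cells and at 18637, 45878 and 33937 without, or 4.64-fold lower (limma adjusted p = 0.24). The other Hcn2 target, NM_053684, went the opposite way and overlapped, at 127, 17.4 and 40.9 with T cells and below background at 4.47 to 19.7 without.

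In ENMO against EAE, 3 of these 17 targets were higher and 4 lower, against 18.1% and 15.7% of all targets. Dpp6, a Kcnd partner, was at 539 against 238 and 214, and Hcn2 (XM_001077248) at 12027 against 4359 and 4814. Slc12a4 was lower, at 51.7 against 120 and 106, as were Dlg4 and both measured Slc12a7 targets with a ratio. For Hcn2 (XM_001077248) the arrays without T cells were at 18637 to 45878, with both EAE arrays the lowest of the 6, as for Kcng4. In the same arrays the summed NSI of 8 neuronal marker targets was 870, 1235 and 1858 with T cells (EAEcoP, EAEcoI, ENMO). Without T cells it was 755, 3084 and 1667. Such a sum is carried by its brightest targets. By target, 1 of 9 measured neuronal markers was higher in ENMO than in EAE and 2 were lower. Their median log2 ratio was -0.63 over 7 targets with a ratio, the opposite direction to the sum. The part of neuronal content in the values of the listed genes was not tested.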

How the data were processed

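RNA of 6 pools was measured on 1-colour Agilent whole rat genome arrays. Per the file headers, the authors deposited Agilent Feature Extraction 10.1.1.1 output, in which each spot's intensity had the background and the spatial trend removed, with no normalization between arrays. They also deposited 1 intensity per target, which equals that corrected intensity for all 32374 targets with 1 spot. Other deposited columns hold probe names, sequences and marks for outlier and well-above-background spots. Spots marked as outliers were left out (72 to 193 per array), spots of a probe were averaged as log2 values, quantile normalization was applied over the 6 arrays (limma 3.58.1, R 4.3.3), and a target's value was that of its brightest probe. This gave 24960 targets measured on at least 1 array and 11103 on all 6. Groups were mapped from the sample titles, and symbols are those of the array; 81 of 94 members matched RefSeq (GRCr8) by accession with the same symbol. No genome build is named for the probes, so no coordinates are given. Some genes are counted in the totals but are not reported here by name or drawn.

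Ratios of mean NSI follow the study's methods. The pooled SD between spots of a probe was 0.54 (log2), which gives the spread of 0.77 for a difference between 2 spots, and among spots well above background it ran from 0.27 to 0.46 over the arrays. The limma fit assumed that a lone array varies like the others. Named were up to 8 counted members per direction and comparison and a set of 19 channels with known roles, and counted genes of the further list; other members were named after their values were seen. Members and lists were chosen with earlier results of these data known. Alternatives were the deposited intensities, 75th percentile scaling, normexp with an offset of 50, other probe and array summaries, filters on dim targets, each slide or array alone or left out and, chosen after seeing the data, removal of each array's local trend in a window of 5 rows and columns to each side.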

Additional observations from a re-analysis of the deposited data

Results flagged for a closer look

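For the members named here, the antibody ratio ran in opposite directions with and without T cells, each beyond the spread between spots. Each direction is a single pair of arrays, and the difference between the backgrounds was not tested. Such opposite ratios were found for 5 of 44 measured members (11.4%) for NMO-IgG against control IgG and 3 of 42 (7.14%) for control IgG against no antibody, against 13.4% and 16.2% of all targets. For NMO-IgG against control IgG, Kcnh4 was at least 16.0-fold lower with T cells and 1.93-fold higher without, a difference of -4.95 between the log2 ratios. Kcnd1 was 1.75-fold lower with T cells and at least 3.07-fold higher without (-2.42). Kcnk9 was 1.82-fold lower with T cells and 2.08-fold higher without (-1.92). For control IgG against no antibody, Kcnmb1 was 7.53-fold higher with T cells and at least 2.18-fold lower without (4.04). Kcnd1 was 2.93-fold higher and at least 2.75-fold lower (3.01), and Kcnj12 was 2.98-fold lower with T cells and at least 16.0-fold higher without (-5.58). The second probe of Kcnmb1 was measured in EAEcoP only.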

How the results depend on the processing

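Across all alternatives no member passed limma's adjusted threshold in any comparison. For T cells against none, 177 of all 24775 targets passed it without ENMO and 3 without EAEcoI. The counts by spread and overlap depended on the scaling and on single arrays. Counts are higher/lower members. The share of all targets tested in the same setting and direction stands in brackets. For T cells against none (1 and 2 with the settings of the report), the deposited intensities gave 14 higher and 0 lower (21.5% and 0.437% of all targets). There 75th percentile scaling gave 0 higher (7.32%), normexp 0 and 0 (2.81% and 1.08%) and spots marked as outliers kept 2 higher (8.09%). Targets measured on all 6 arrays gave 0 lower (7.23%), and mean NSI over 100 gave 0 and 0 (9.21% and 5.83%). Leaving out 1 array gave 2 to 9 higher and 2 to 8 lower. Without ENMO they were 9 and 8 (14.3% and 14.2%), and leaving out the healthy control 2 and 6 (9.53% and 8.26%). Leaving out NMO-IgG only gave 3 higher (9.88%) and control IgG only 3 higher (12.1%). Without EAEcoI there were 2 higher (12.1%) and without EAEcoP 2 higher (8.4%). Slide 1 alone gave 7 and 8 (19.5% and 14.9% of all targets), and slide 2 alone 10 and 6 (19.2% and 19.4%), where each side is 1 or 2 arrays. For ENMO against EAE (9 and 13), the deposited intensities gave 2 and 30 (4.93% and 37.2% of all targets) and normexp 3 and 7 (6.38% and 6.64%). There outliers kept gave 22 lower (21.0%) and all 6 arrays 5 lower (11.3%). Mean NSI over 100 gave 2 and 3 (25.2% and 16.1%), and EAEcoP alone 16 higher (32.2%). The deposited intensities moved the median log2 ratio of all targets to 0.70 for T cells and to -0.71 for ENMO, and that of the members to 0.81 and -0.69. They also turned Kcnma1 to -0.063 (log2, ENMO against EAE). For NMO-IgG against control IgG (1 and 2), the deposited intensities gave 0 higher (1.05%) and normexp 1 lower (1.14%). All 6 arrays gave 0 lower (2.92%) and mean NSI over 100 gave 0 lower (5.14%). The pair with T cells alone gave 8 and 15 (19.8% and 19.6%) and that without 10 and 8 (22.4% and 18.5%). For control IgG against no antibody (1 and 4), the deposited intensities gave 0 higher (1.02%) and normexp 1 lower (0.656%). All 6 arrays gave 0 and 2 (5.76% and 1.53%), and mean NSI over 100 gave 0 and 1 (6.42% and 2.53%). The pair with T cells alone gave 23 and 18 (32.4% and 29.1%) and that without 5 and 7 (18.3% and 20.8%). The cause was not tested, except that filters and left-out arrays test fewer targets or arrays. With antibody as a block, which sets each T cell array against its counterpart, 4 members had an unadjusted limma p under 0.05 for T cells, with slide as a block 3, and without a block 6; both blocks gave 0 adjusted calls. Signal over background limits the members. The 25 measured on no array have no ratio in any comparison. Of the 94 members, 57 had a ratio for T cells against none and 56 for ENMO against EAE.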
